A study of Homo sapiens with 2 samples.

Results

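The 608 regions described here were open in both libraries of CAL27, an established line of human tongue squamous cell carcinoma, but carried fewer tags per total tags after lactate than without it. They were chosen by that ratio from 29305 shared regions that met the other criteria, which is 2.07% of them. The series holds 1 library of CAL27 cells kept in 10 mM lactate for 24 h and 1 library of CAL27 cells with no treatment, and asks what added lactate does to the chromatin of these cells. Both libraries were made by ATAC-seq, which marks accessible DNA by where the transposase Tn5 inserts adapters. The labels name no other agent, and both libraries come from the same line, so differences between cultures cannot be told apart from the treatment.

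The members were found in the following way. Regions of the lactate and untreated lists that overlapped by at least 1 bp were merged on chromosomes 1 to 22 and X, giving 130506 merged regions, of which 86803 were in both lists. Narrow single-summit regions, a class slightly wider than the 200 bp tag extension, were left out where nothing else was merged with them, which left 73366. Of the members, 24 still contain such a narrow part from 1 list, and leaving those out too gives 584. The highest pileups of both libraries, the numbers of extended tags over the tallest summit, had to sum to 60 or more. Around 4 centromeres everything was left out (chromosome 1, 120 to 145 Mb; chromosome 5, 45 to 51 Mb; chromosome 16, 33 to 47 Mb; chromosome 17, 21 to 28 Mb). The ratio is the lactate pileup per total lactate tags over the untreated pileup per total untreated tags, and members lie below 1. With 15401276 lactate tags and 18248413 untreated tags, equal pileups give a ratio of 1.18, so every member also had the lower raw pileup in lactate. With 1 library per group there is no test, and the ratios compare these libraries. All intervals are exact 95% intervals that cover counting error only. The ratio intervals of members come from the same pileups that chose them. An interval below 1 is therefore favoured by the choice and is given as a description.

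An accessible region is a stretch where nucleosomes are displaced, as at gene promoters and at distal enhancers bound by transcription factors. In squamous epithelium such distal elements are bound by the p63 and AP-1 families. Repeats around centromeres, near chromosome ends and in the ribosomal DNA arrays occur in many near-identical copies, and tags from these copies can be placed on the wrong copy. Of 16 squamous epithelial markers, 14 in the lactate and 14 in the untreated library had a region within 1 kb of a gene end. Of 6 endothelial markers 0 did in either library, and of 8 fibroblast markers 3 did in the lactate and 4 in the untreated library. For the 8 leukocyte markers the counts were 4 in the lactate and 4 in the untreated library. For the 6 neuronal markers they were 4 in the lactate and 6 in the untreated library. No share over all coding genes is set beside these counts. Of 16 housekeeping genes 16 had such a region in either library, and of 30 inflammation and interferon genes 30 in the lactate and 28 in the untreated library. The marker counts therefore do not identify a cell type.

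Promoter sequences could be read only for the 64 members with a coding transcription start inside, 10.5% of the 608, and do not stand for the rest. RefSeq sequences of GRCh38.p14, the assembly of hg38, are printed for the genes with a transcription start inside a member that were among the 10 lowest ratios at gene ends or in a gene list. Each runs 5′ to 3′ over the 250 bases before the start, and capitals mark matches to the motifs searched. UTP15 (chr5:73565493-73565742, plus strand) encodes a protein of the ribosomal small-subunit processome and shares its promoter with ANKRA2 (chr5:73565640-73565889, minus strand), an ankyrin repeat gene read in the other direction. In both, the capitals are 1 GC box and 1 CCAAT box, seen from opposite strands. NFKBIZ (chr3:101827740-101827989, plus strand) encodes the nuclear inhibitor protein IkappaBzeta, and its capitals are a GC box and a TATA box. TNFRSF9 (chr1:7940840-7941089, minus strand) encodes the costimulatory receptor 4-1BB and holds a GC box and an AP-1 motif. BTN3A3 (chr6:26440254-26440503, plus strand), a butyrophilin gene, holds an AP-1, a GATA and a CCAAT motif in AT-rich sequence. Its member begins only at 26440322, so the AP-1 letters lie mostly outside the member. SOD2 (chr6:159727385-159727634, minus strand), the mitochondrial superoxide dismutase gene, holds 4 GC boxes before the start printed here.
UTP15: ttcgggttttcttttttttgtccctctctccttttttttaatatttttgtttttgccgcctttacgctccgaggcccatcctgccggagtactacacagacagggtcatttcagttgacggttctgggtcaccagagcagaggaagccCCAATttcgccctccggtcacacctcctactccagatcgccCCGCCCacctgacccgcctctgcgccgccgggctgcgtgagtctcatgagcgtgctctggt
ANKRA2: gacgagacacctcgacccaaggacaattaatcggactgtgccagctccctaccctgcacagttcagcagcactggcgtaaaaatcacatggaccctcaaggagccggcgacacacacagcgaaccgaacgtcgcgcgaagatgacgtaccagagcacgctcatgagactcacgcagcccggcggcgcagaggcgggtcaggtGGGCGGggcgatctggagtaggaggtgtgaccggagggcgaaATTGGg
NFKBIZ: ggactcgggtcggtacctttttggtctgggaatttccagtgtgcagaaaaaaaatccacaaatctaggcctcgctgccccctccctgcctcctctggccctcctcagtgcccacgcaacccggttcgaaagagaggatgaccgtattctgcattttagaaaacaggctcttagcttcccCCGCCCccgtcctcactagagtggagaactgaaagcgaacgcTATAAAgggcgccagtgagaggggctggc
TNFRSF9: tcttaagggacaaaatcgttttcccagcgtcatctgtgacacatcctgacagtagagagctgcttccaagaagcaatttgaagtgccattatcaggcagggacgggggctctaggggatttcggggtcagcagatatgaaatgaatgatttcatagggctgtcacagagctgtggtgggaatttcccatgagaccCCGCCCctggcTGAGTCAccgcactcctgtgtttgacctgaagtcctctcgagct
BTN3A3: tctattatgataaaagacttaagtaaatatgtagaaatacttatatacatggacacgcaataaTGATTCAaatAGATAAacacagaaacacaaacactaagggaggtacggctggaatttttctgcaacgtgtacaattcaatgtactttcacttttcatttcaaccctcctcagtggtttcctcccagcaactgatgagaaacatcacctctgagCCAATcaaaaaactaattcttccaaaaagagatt
SOD2: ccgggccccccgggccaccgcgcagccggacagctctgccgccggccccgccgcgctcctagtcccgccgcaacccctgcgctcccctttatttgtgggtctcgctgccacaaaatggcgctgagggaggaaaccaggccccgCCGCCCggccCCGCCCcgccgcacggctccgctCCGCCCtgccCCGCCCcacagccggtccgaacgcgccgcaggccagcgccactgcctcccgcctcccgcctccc

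The lowest ratio by far belonged to an intergenic region 80356 bp from PTPRG, a receptor tyrosine phosphatase gene (chromosome 3, 61480992 to 61481215), with 7 lactate tags against 56 untreated tags. Its ratio was 0.148 (conditional Poisson interval 0.0569 to 0.326). The next, 286418 bp from the Notch ligand gene JAG1 (chromosome 20, 10960417 to 10960637), had 16 lactate and 46 untreated tags, a ratio of 0.412 (0.218 to 0.742). These merged regions are 224 and 221 bp wide with a single summit in both lists, like the class left out, but only the one near JAG1 has a narrow part and would go under the stricter reading. No other member lay below 0.5, and 62 of 608 (10.2%, binomial interval 7.91 to 12.9) lay below 0.75. Most stood close to the threshold: 343 (56.4%) had a ratio of 0.9 or more and 206 (33.9%) a ratio of 0.95 or more. The median member had a ratio of 0.917, with quartiles at 0.846 and 0.967, against a median of 1.88 in the 28697 other eligible regions. In raw pileups the members had a median of 32.5 lactate and 44 untreated tags, and the other eligible regions 59 lactate and 38 untreated tags. For 22 members the whole interval lay below 1, which is 0.0751% of all eligible regions. Of these 22, 6 were 240 bp or less wide and 3 lay in the added pericentromeric windows described further on. The regions at DUX4, at DUX4L26 and near the start of chromosome 18, also described further on, are among the 22 too.

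**Figure D1:**
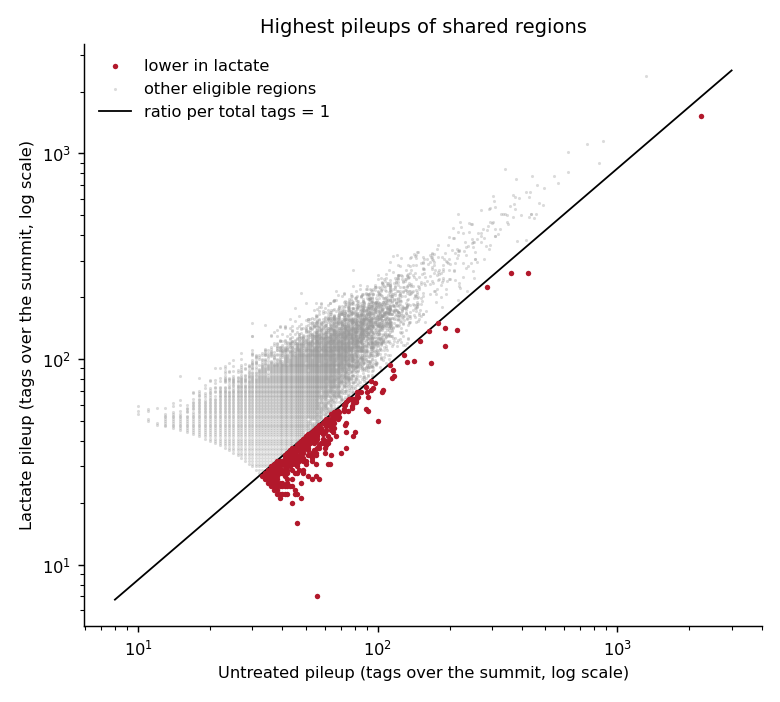
Highest lactate pileup (vertical, log scale) against highest untreated pileup (horizontal, log scale) of the 29305 eligible shared regions, with the 608 lower in lactate in red, the others in grey and a line where both are equal per total tags. Most red points lie just under the line, and the point far below it is the region near PTPRG with 7 lactate and 56 untreated tags.

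Among the 20 lowest ratios, 10 regions lay outside coding genes, 8 within them and 2 at a gene end. Within TOX3, a gene of the HMG-box family (chromosome 16, 52524361 to 52524579), the pileups were 21 in lactate and 48 in untreated cells. The RNA-binding protein gene RBM6 (chromosome 3, 50010818 to 50011182) held 20 lactate and 44 untreated tags. An internal region of UGGT2, an enzyme of glycoprotein folding control (chromosome 13, 95914384 to 95914977), had 22 lactate and 46 untreated tags. These 3 intragenic regions had ratios of 0.518, 0.539 and 0.567, each with an interval below 1. The region in TOX3 is 219 bp wide and also has a narrow part, as has that at RPS10 described further on. SLX4IP, whose protein binds the nuclease scaffold SLX4 (chromosome 20, 10540635 to 10541550), held 22 lactate and 45 untreated tags. Within TBC1D22B (chromosome 6, 37324141 to 37324648) there were 26 lactate and 53 untreated tags. TTI1, a gene for a cochaperone of the PI3K-like kinases (chromosome 20, 37990526 to 37991011), held 27 lactate and 55 untreated tags. Their ratios were 0.579, 0.581 and 0.582, and all 3 intervals again ended below 1. KCTD14 (chromosome 11, 78040476 to 78040714) completed the intragenic ones outside repeats with 22 lactate and 42 untreated tags, at 0.621 (0.353 to 1.06). That region is 239 bp wide.

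Of the intergenic ones, the region 36830 bp from RBL2, the pocket protein gene p130 (chromosome 16, 53396911 to 53397641), had 31 lactate and 63 untreated tags. The one 22391 bp from CFAP144 (chromosome 1, 43119876 to 43120571) had 35 lactate and 70 untreated tags. Beside FGF12, a fibroblast growth factor homologue (chromosome 3, 192068330 to 192068529, 70861 bp away), stood 37 lactate and 74 untreated tags. These 3 had ratios of 0.583, 0.592 and 0.592 with upper bounds of 0.910, 0.901 and 0.891. The region beside FGF12 is only 200 bp wide, the peak caller's minimum width. A region 8277 bp from MPHOSPH6, an RNA exosome cofactor gene (chromosome 16, 82139071 to 82139885), had 25 lactate and 48 untreated tags and an interval that passed 1 (0.617, 0.365 to 1.02). In all, 16 of the 20 had an interval below 1, which taking the lowest ratios favours.

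**Figure D2:**
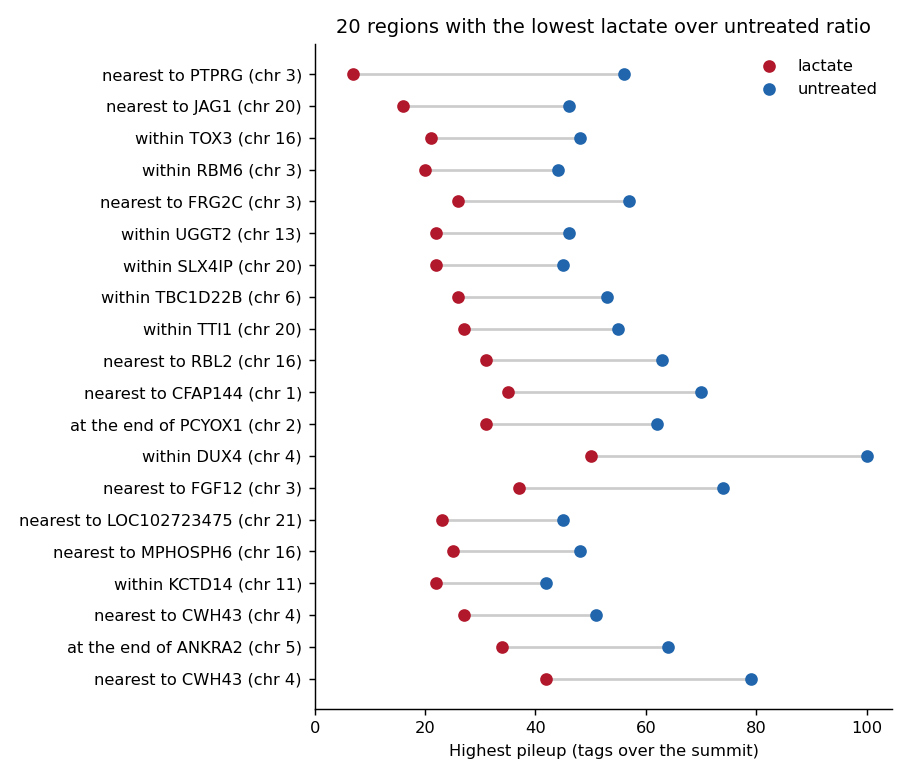
Highest pileup in tags (horizontal) of the lactate library in red and the untreated library in blue for the 20 members with the lowest ratio, named by the gene at whose end, within which or nearest to which they lie. Lactate pileups run from 7 to 50 and untreated pileups from 42 to 100, and the region within DUX4 is the tallest of them.

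Some of the low ratios fell in repeats or near chromosome ends, away from centromeres. DUX4 lies in the D4Z4 repeat at the end of the long arm of chromosome 4 (190179163 to 190180065), where the pileups were 50 in lactate and 100 in untreated cells, a ratio of 0.592 (0.413 to 0.840). A related copy, the pseudogene DUX4L26 beside FRG2C (chromosome 3, 75668804 to 75669665), had 26 lactate and 57 untreated tags, a ratio of 0.540 (0.326 to 0.874). Near the start of the short arm of chromosome 18 a region in a lncRNA gene (107834 to 108656) had 96 lactate and 167 untreated tags, at 0.681 (0.524 to 0.881). Counts at any 1 of several near-identical copies are uncertain. How tags were placed at these regions, and whether the chromosome 18 region is such a copy, was not tested.

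The description as regions away from centromeres holds only for the 4 windows left out. The densest group of members lay beside the centromere of chromosome 4. Between 49 and 50 Mb, 10 of 11 eligible regions were members, with ratios of 0.627 to 0.980, and CWH43 as the nearest gene. The tallest of them (49149079 to 49149914) had 263 lactate and 423 untreated tags, a ratio of 0.737 (0.629 to 0.861). On the short arm of chromosome 21, all 3 eligible regions between 8 and 9 Mb were members, with 23, 28 and 46 lactate tags and 45, 46 and 58 untreated tags. The member with the most tags in all also flanked a centromere (chromosome 3, 93470259 to 93470899), with 1513 lactate and 2229 untreated tags, at 0.804 (0.753 to 0.859). In windows around these places that were named after the values were seen (chromosome 3, 90 to 94 Mb; 4, 48 to 52 Mb; 10, 38 to 43 Mb; 21, 5 to 11 Mb), 16 of 50 eligible regions were members. Without these windows 592 members remained, 2.02% of the eligible regions.

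By chromosome the share of members ran from 1.06% on chromosome 19 (14 of 1316) to 4.61% on chromosome 4 (22 of 477, binomial interval 2.91 to 6.90). Without the pericentromeric window chromosome 4 stood at 2.63% (12 of 457) and chromosome 21, at 3.52% with its short arm, at 2.70% (9 of 333). Chromosomes 3 (2.94%, 2.21 to 3.84) and 13 (3.05%, 1.81 to 4.77) were the next highest. Of the 504 windows of 1 Mb that held any member, 424 held 1, with no expected number to set beside it. By count of members, the windows next to that on chromosome 4 were on chromosome 11 from 35 to 36 Mb (4 of 55 eligible regions), 6 from 26 to 27 Mb (4 of 62), 16 from 70 to 71 Mb (4 of 32) and 7 from 43 to 44 Mb (4 of 24). Another member lay within 10 kb of 26 members (4.28%, 2.81 to 6.20), while a member lay within 10 kb of 397 of the other eligible regions (1.38%, 1.25 to 1.53). Without the added pericentromeric windows it was 14 of 592 members (2.36%, 1.30 to 3.94) and 396 of the other eligible regions (1.38%, 1.25 to 1.52), which the counting error does not separate.

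**Figure D3:**
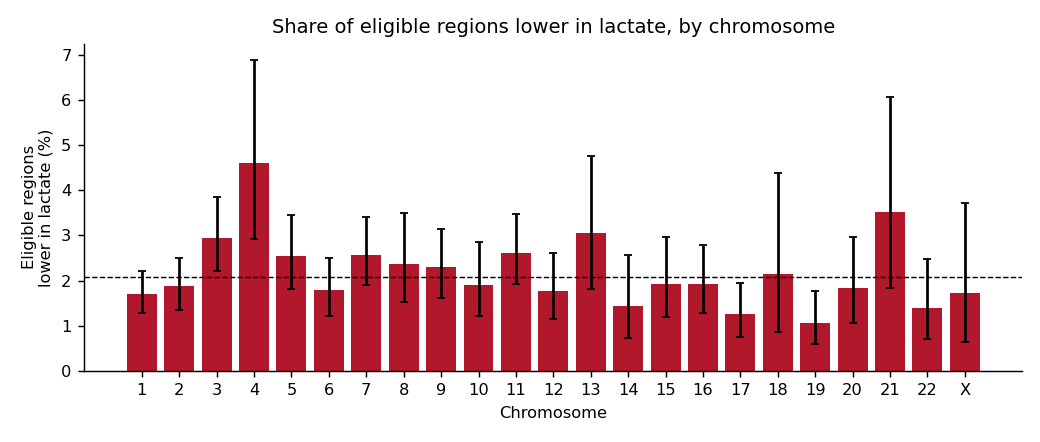
Share of eligible regions that were lower in lactate on each chromosome in percent, with exact 95% binomial intervals as bars and a dashed line at the share over all of them. Chromosome 4 stands highest at 4.61% and chromosome 19 lowest at 1.06%.

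With scaling by total tags, members lay at gene ends less often than the other eligible regions. Gene end here means that a region reaches to 1 kb or less from where an annotated coding gene begins or stops. Such ends took 99 of the 608 members (16.3%, 13.4 to 19.5) and 27.9% (27.4 to 28.4) of the other eligible regions. The interior of genes held 240 members (39.5%) and 36.4% of the others, and intergenic sequence 269 members (44.2%) and 35.7% of the others. Members have fewer tags than the others, and gene ends are more common among tall regions, so the shares were also taken at like tags. Among regions of 60 to 79 summit tags in both libraries together, 13.8% of 340 members (10.3 to 18.0) and 21.6% of 9036 others (20.8 to 22.5) were at a gene end. From 80 to 99 tags it was 22.3% of 139 members (15.7 to 30.1) and 25.6% of 6035 others (24.5 to 26.7), which the counting error does not separate. From 100 to 149 tags it was 17.3% of 98 members (10.4 to 26.3) and 30.4% of 8063 others (29.4 to 31.5). The median distance to the nearest coding gene end was 19833 bp for members and 10215 bp for the others. The contrast depends on the scaling. When members were chosen after scaling to the summed tags of shared summits, 26.2% were at a gene end, and by the ratio of fold enrichments 23.9%.

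Very narrow regions had the highest share of members, although merged regions made only of the narrow class had been left out. The peak caller's minimum width is 200 bp, and 15 of the 37 eligible regions of exactly this width were members (40.5%, 24.8 to 57.9). Among wider ones up to 240 bp it was 28 of 418 (6.70%), and above 240 bp 565 of 28850 (1.96%, 1.80 to 2.12). Of the 10 members with the most tags, 7 were 240 bp or less wide. They included a region within IMMP2L, a gene for a mitochondrial inner membrane peptidase subunit (chromosome 7, 110766502 to 110766707), with 261 lactate and 361 untreated tags. Other tall, narrow ones lay 21342 bp from FOXJ3 (chromosome 1, 42357222 to 42357421; 225 lactate and 287 untreated tags) and 32880 bp from SCFD1 (chromosome 14, 30768730 to 30768929; 138 lactate and 214 untreated tags). In the lncRNA gene LINC01818 on chromosome 2 a pair of them had 141 lactate and 190 untreated tags (150172850 to 150173052) and 116 lactate and 190 untreated tags (150173631 to 150173831). Within SPTLC2, a subunit gene of serine palmitoyltransferase (chromosome 14, 77604378 to 77604606), there were 149 lactate and 179 untreated tags. The last, 276170 bp from the nuclear receptor gene NR2F1 (chromosome 5, 93306826 to 93307052), had 137 lactate and 164 untreated tags. None of the 17 members with 200 or more tags was at a gene end, and 9 of them were 240 bp or less wide, against 127 of the 2276 other eligible regions of such height (5.58%).

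At gene ends the lowest ratio was that of PCYOX1, the prenylcysteine oxidase gene (chromosome 2, 70256872 to 70257220, 695 bp from the annotated end), with 31 lactate and 62 untreated tags and a ratio of 0.592 (0.372 to 0.926). The promoter shared by UTP15 and ANKRA2 (chromosome 5, 73565050 to 73566103) had 34 lactate and 64 untreated tags, at 0.629 (0.403 to 0.969). These were the only gene-end members whose interval lay below 1. NFKBIZ (chromosome 3, 101827152 to 101828090), a region that also reaches within 1 kb of the end of NXPE3, had 24 lactate and 44 untreated tags, at 0.646 (0.376 to 1.09). The ribosomal protein gene RPS10 (chromosome 6, 34425301 to 34425519) had 22 lactate and 41 untreated tags and the mitochondrial membrane protein gene GHITM (chromosome 10, 84138729 to 84139027) 21 lactate and 39 untreated tags. Their ratios were 0.636 and 0.638, with upper bounds of 1.09 and 1.11.

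Further gene ends were closer to 1. CCDC200 (chromosome 17, 43231276 to 43232751) had 35 lactate and 60 untreated tags. VPS18, a subunit gene of the vacuolar tethering complexes (chromosome 15, 40894743 to 40895205), had 33 lactate and 53 untreated tags. PKIA, which encodes an inhibitor of protein kinase A (chromosome 8, 78515785 to 78516744), had 24 lactate and 38 untreated tags. Their ratios were 0.691, 0.738 and 0.748. TNFRSF9 (chromosome 1, 7940741 to 7941791) and BTN3A3 (chromosome 6, 26440322 to 26440835) had the same pileups, 24 in lactate and 37 in untreated cells, at 0.769 (0.440 to 1.32).

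A transcription start of a coding gene lay inside 64 members (10.5%, 8.20 to 13.2) and inside 21.4% (20.9 to 21.9) of the other eligible regions. In 9 of the 64 there were starts of more than 1 gene. Examples picked after their values were seen show the range. POLR3A, the largest subunit of RNA polymerase III (chromosome 10, 78029431 to 78029709), had 35 lactate and 53 untreated tags, a ratio of 0.782. The replication genes GINS3 (38 lactate and 57 untreated tags), RFC3 (33 lactate and 48 untreated tags) and CDC7 (34 lactate and 48 untreated tags) had ratios of 0.790, 0.815 and 0.839. MIOS, a subunit gene of the amino acid sensing GATOR complex (chromosome 7, 7566088 to 7567396), had 71 lactate and 94 untreated tags, at 0.895 (0.648 to 1.23). The proteasome subunit genes PSMB5 (41 lactate and 51 untreated tags) and PSMC3 (50 lactate and 61 untreated tags) stood at 0.953 and 0.971. In all of these the interval included 1.

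Sequence composition of these promoters differed from that at the other eligible regions. Members have fewer summit tags (median 76.5 against 97), and unlike the gene-end shares, composition and motifs were not compared at like tags. Over the 250 bases before the start, the median GC content was 58.2% for the 82 starts of 73 genes inside members, 65.2% for the 8152 starts inside other eligible regions and 62% for all 22130 starts of coding genes in the table. Several starts of 1 gene can share bases. The GC box, GGGCGG on either strand, was present in 52.4% (41.1 to 63.6) of the starts in members, 70.8% (69.8 to 71.8) of those in other eligible regions and 53.7% of all. The ETS motif CCGGAAG was present in 10.98% (5.14 to 19.8), 18.9% (18.0 to 19.7) and 10.7%. The hypoxia response element ACGTGC was present in 1 of 82 (1.22%, 0.0309 to 6.61), 8.08% (7.50 to 8.70) and 6.49%. Counted once per region, the GC box was in 57.8% (44.8 to 70.1) of 64 members and 75.5% (74.4 to 76.5) of the others, and ETS in 10.9% (4.51 to 21.2) and 20.6% (19.6 to 21.7).

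Of the motifs with a higher share in members than in the other eligible regions, none had an interval clear of theirs once each region was counted once. YY1, searched as AAGATGGC, was found in 5 of 82 starts (6.10%, 2.01 to 13.7), in 2.01% (1.72 to 2.34) of the starts in other eligible regions and in 1.38% of all. The CTCF core CCCTCNTGG was found in 6 (7.32%, 2.73 to 15.2), 2.22% (1.91 to 2.56) and 2.35%, but 3 of the 6 starts, of CNPY4 and TAF6, share 1 region. Per region the CTCF core was in 4 of 64 members (6.25%, 1.73 to 15.2) and 2.67% (2.28 to 3.11) of the other eligible regions with a start. For the AP-1 motif TGANTCA the shares were 6.10% (2.01 to 13.7), 4.31% and 5.35%. The CCAAT box CCAAT was in 34.1%, 40.5% and 32.7%, the NRF1 motif in 10.98%, 11.6% and 6.58%, and the cAMP response element TGACGTCA in 3.66%, 3.18% and 2.02%. The E box CACGTG was in 6.10%, 9.02% and 7.37%, the TATA box TATAAA in 3.66%, 4.40% and 8.997%, GATA as AGATAA in 4.88%, 3.55% and 7.09%, and TEAD as GGAATG in 8.54%, 9.10% and 10.5%. All 13 motifs were searched on both strands, the E box and the hypoxia response element can overlap, and a match is letters only.

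Genes for transfer RNAs, short templates of RNA polymerase III, overlapped 7 members (1.15%, 0.464 to 2.36) and 0.680% (0.588 to 0.781) of the other eligible regions. Of these 7 members 5 were on chromosome 6, but the same share was not taken for the other eligible regions, so this does not set members apart. The tallest lay at TRT-TGT5-1 on chromosome 14 (20681282 to 20682125) with 123 lactate and 150 untreated tags, and the lowest ratio was at TRP-TGG3-1 on chromosome 5 (181188819 to 181189298), with 40 lactate and 61 untreated tags and a ratio of 0.777 (0.508 to 1.18). A pair of regions on chromosome 6 held TRA-CGC1-1 with TRI-AAT5-1 (56 lactate and 68 untreated tags) and TRP-AGG2-2 (36 lactate and 43 untreated tags), at 0.976 and 0.992. Pseudogenes overlapped 20 members (3.29%, 2.02 to 5.03) and 1.85% of the others, and lncRNA genes 19.6% of the members and 19.6% of the others.

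Within genes, no coding gene held 3 or more members, and 8 held 2. CDK6, a kinase of the G1 phase (chromosome 7), held 31 lactate and 46 untreated tags in one region (92633174 to 92633952) and 27 lactate and 38 untreated tags in the other (92832156 to 92832390). The ratios were 0.798 (0.489 to 1.29) and 0.842 (0.494 to 1.42), and the 6 eligible regions of the gene had a median of 1.33. RFC3 had 2 of its 2 eligible regions among the members, CENPP, a centromere protein gene, 2 of 7 (0.823 and 0.843) and ROR1, an orphan receptor kinase gene, 2 of 8 (0.896 and 0.914). The others with 2 were SDK1 (of 16), EFNA5 (of 7), CLDN16 (of 8) and HYDIN (of 4), with ratios of 0.899 to 0.976.

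Of the gene lists, most held few members or none. The cell cycle list had 2 members among 43 eligible regions (4.65%), both in CDK6, and the oxidative stress and autophagy list 2 of 51 (3.92%). Of the stress genes, SOD2 had annotated starts inside a region on chromosome 6 (159726567 to 159727909). That region also holds starts of WTAP, and the gene end it lies at is that of WTAP, not of SOD2. It had 50 lactate and 61 untreated tags, at 0.971 (0.655 to 1.44). TXNRD1, the thioredoxin reductase gene, had 36 lactate and 43 untreated tags at 0.992. Glycolysis and lactate genes had 1 of 71 (1.41%), a region within GPI, the glucose phosphate isomerase gene (chromosome 19, 34391271 to 34392205), with 34 lactate and 55 untreated tags at 0.732 (0.463 to 1.14). Squamous epithelium had 1 of 81 (1.23%), within the epithelial ETS factor gene EHF (chromosome 11, 34654868 to 34655133), with 105 lactate and 129 untreated tags at 0.964 (0.738 to 1.26). The EHF region has a narrow part of 222 bp in the lactate list and would go under the stricter reading. Growth factor signalling had 1 of 88 (1.14%), within EGFR (chromosome 7, 55020580 to 55020939), with 28 lactate and 36 untreated tags at 0.922 (0.542 to 1.55). There were 0 members among the eligible regions of the hypoxia response (35), AP-1 and immediate early genes (40), mesenchymal and TGF-beta genes (35), inflammation and interferon (30), acyl-lysine writers and erasers (24) and housekeeping genes (19). Against 2.07% of all eligible regions these counts of 0 to 2 are too small to set a list apart.

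Near the threshold the values ran on without a gap. The last members inside it were a region within PRKCA (54 lactate and 64 untreated tags), one near JUN, the AP-1 subunit gene (43 lactate and 51 untreated tags), and one at PRKCE (48 lactate and 57 untreated tags), with ratios of 0.9997, 0.999 and 0.998. Just outside lay regions near SKOR1 and GRXCR1 (38 lactate and 45 untreated tags each) and NUP50 (49 lactate and 58 untreated tags), at 1.001 each. At the limit of 60 tags, regions at GHITM, TRIM44 (22 lactate and 38 untreated tags) and BBOX1 (23 lactate and 37 untreated tags) were inside. Regions at MARCHF1 (14 lactate and 45 untreated tags), ZFP90 and SEC11C (20 lactate and 39 untreated tags each) were outside with 59 tags.

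Values beside the selected summits were also compared. In regions with several summits, pairs of summits more than 200 bp from the tallest ones share no extended tags with them, but neither can they be taller, so these values are partly fixed by the choice. The 258 such pairs in 219 members had a median ratio of 1.11, with quartiles of 0.901 and 1.32, and 96 (37.2%, 31.3 to 43.4) were below 1. In the other eligible regions the 10229 pairs had a median of 1.39 and 13.9% (13.2 to 14.6) were below 1, and over both groups it was 14.5%. Median pileups of these pairs were 26 lactate and 28 untreated tags in members, and 34 lactate and 29 untreated tags in the others.

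Weaker shared regions nearby, with 20 to 59 summit tags, could not be members. Within 10 kb of a member there were 235, with a median ratio of 1.38, and 46 (19.6%, 14.7 to 25.2) were below 1. Within 10 kb of the other eligible regions, with no member within 200 kb, there were 7148 with a median of 1.53, and 11.3% (10.5 to 12.02) were below 1. Over all 39530 regions of this kind 14.2% were below 1. Leaving out members of 240 bp or less and those in the added pericentromeric windows gave 34 of 215 (15.8%, 11.2 to 21.4) and a median of 1.42. Within 50 kb the medians were 1.46 near members and 1.56 near the others, and 16.5% (14.4 to 18.8) and 12.2% (11.8 to 12.7) were below 1. Whether most of these ratios lay above or below 1 rests on scaling by total tags. Scaled to the summed tags of shared summits, 71.9% (65.7 to 77.6) of the regions within 10 kb of members were below 1. Near the others it was 65.8% (64.7 to 66.9), and the intervals overlap. Within 50 kb these shares were 67.9% (65.1 to 70.6) and 62.6% (61.99 to 63.3). The share thus stayed higher near members under either scaling.

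The local background, which the peak caller takes over 10 kb and which includes the region's own tags, was 3.42 tags in lactate and 4.33 in untreated cells at the median member. At the other eligible regions it was 4.68 in lactate and 4.44 in untreated cells. Because the selected tags are part of it, it is given as a description and not compared. Fold enrichment over this background is made from the selected pileups too, so its direction largely follows from the choice of members. As a description only, it was higher in lactate at 120 members (19.7%) and at 95.7% of the others.

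**Figure D4:**
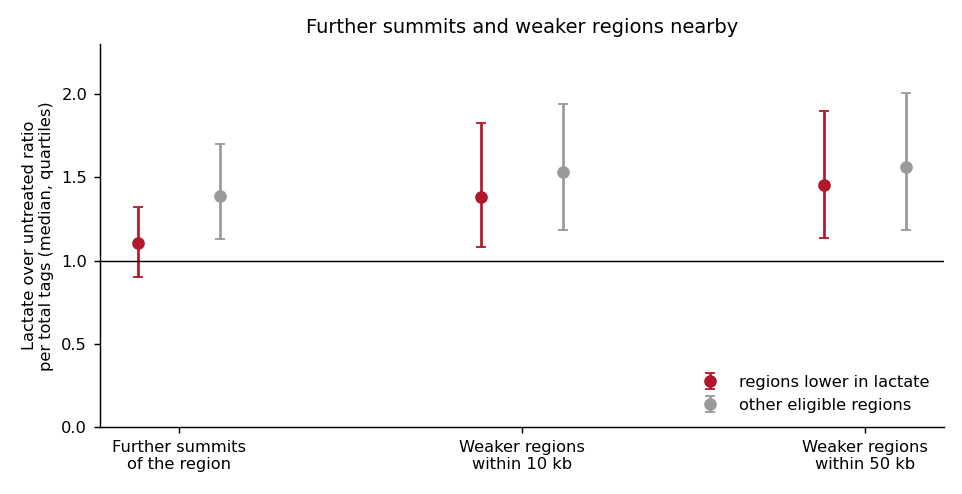
Lactate over untreated ratio per total tags (median with quartiles) at and around members in red and other eligible regions in grey, for further summits of the same region and weaker shared regions within 10 and 50 kb. The members' medians are 1.11, 1.38 and 1.46, against 1.39, 1.53 and 1.56 for the other regions.

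For regions listed in 1 library alone the intervals near members and near the others overlapped. Within 50 kb of a member lay 842 lactate-only and 244 untreated-only regions, so 22.5% (20.02 to 25.1) were untreated-only. Near the other eligible regions these numbers were 15805 and 4281, or 21.3% untreated-only (20.7 to 21.9). Within 10 kb the shares were 21.2% (16.3 to 26.9) near members and 24.8% (23.9 to 25.8) near the others. The tallest summits of both libraries lay a median of 18 bp apart in members and 20 bp in the others, and 236 members (38.8%, 34.9 to 42.8) and 45.1% (44.5 to 45.6) of the others had a single summit in both lists. Whether lower tags in lactate reflect fewer open cells or less access per cell cannot be told apart in bulk libraries.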

How the data were processed

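ATAC-seq peak lists of 1 lactate and 1 untreated CAL27 library were used, grouped by the treatment labels. Tools listed in the submitters' processing notes are BWA 0.7.12, fastp 0.20.0 and MACS2 2.1.0, with build hg38, while the file headers give MACS 2.2.7.1. Per the file headers, peaks were called separately per library with no control library, a q-value threshold of 0.05 and a 200 bp extension. The input names in the headers carry the marks uni and dedup. The deposited pileup is a signal, tags over a summit, unscaled. The deposited fold enrichment is a ratio to local background with 1 added to each, per the file headers' tool. That background was recovered from the deposited pileup and fold.

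Merging, ratios, exact conditional Poisson intervals for ratios and exact binomial intervals for shares were computed in Python 3.11.15 with scipy 1.17.1, and checked on simulated data. Intervals cover counting error only. Genes came from RefSeq GRCh38.p14. No member was dropped by a further filter on low values. Regions on Y and unplaced contigs were not used (255 lactate, 252 untreated). The promoter table covers 15812 of 19974 coding genes.

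Members, lists and motifs were chosen with earlier results of these data known. Named genes are the 20 lowest ratios, the 10 tallest members, the 10 lowest at gene ends, genes with 3 or more members, up to 4 per list, values at the thresholds and the 5 windows of 1 Mb with most members. Alternatives changed the tag minimum, the overlap, the scaling, the summit pairing and the regions left out.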

Additional observations from a re-analysis of the deposited data

How the results depend on the processing

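No paired analysis was possible because a lone library stands for either condition, and none could be left out. Of 54 alternative values, 31 stayed within 1.5 times a count or the interval of a share or median. With a minimum of 40 summit tags there were 1652 members (3.73% of eligible regions, median ratio 0.897), and with 100 there were 129 (0.938%, 0.923). Keeping narrow regions gave 1327 members, 3.47% of eligible regions, with 7.99% at gene ends and a median of 0.896. The tallest summit pairs within 100 bp gave a share of 2.31%. Scaling to the summed tags of shared summits, in place of total tags, gave 12413 members (42.4%), with 26.2% at gene ends and a median of 0.835. The small number thus rests on scaling by total tags, and the share at gene ends depends on it too. The ratio of fold enrichments gave 1701 members (5.80%, 23.9% at gene ends), 487 of them among the 608. Asking for an interval below 1 gave 22 (0.0751%), with 9.09% at gene ends and a median of 0.592. Within 10 kb, shared non-member regions near members had a median ratio of 1.63, against 1.67 within 50 kb. Of these regions, 397 of 632 and 1363 of 2537 had 60 or more summit tags, and the rule leaves none of those below 1. Both medians are therefore raised by the choice of members. The weaker shared regions alone, which could not be members, gave 1.38 within 10 kb and 1.46 within 50 kb. Leaving out any merged region with a narrow part, the added pericentromeric windows or widths up to 240 bp was chosen after seeing the data and gave 584, 592 and 565 members. Counting motifs once per region, nearby members without these windows and the rescaled neighbours were also chosen after seeing the data. Members with few tags have wide intervals, and 586 of the 608 intervals include 1.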
